A study of Mus musculus with 8 samples.

Results

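The first steps by which a cell breaks down leucine, isoleucine and valine, the branched-chain amino acids (BCAA), are run by a small set of genes, and 9 of them were followed here by name: Bcat1, Bcat2, Slc25a44, Bckdha, Bckdhb, Dbt, Dld, Bckdk and Ppm1k. They were taken from a table of 27179 gene identifiers by matching each symbol to its Entrez number, and all 9 were present and passed the filter on low counts. The tested cells were MLL-AF9 acute myeloid leukaemia cells from the bone marrow of mice that had eaten a diet without BCAA (3 libraries), set against the same cells from mice on a diet with standard amino acids (5 libraries). The labels of the tested libraries say only BCAA, and that this means a BCAA-free diet comes from the series title and design.

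Both groups shared everything else that the labels give. The leukaemia is a single line (genotype WT in the labels) started with cells of 1 terminally ill mouse, driven by the MLL-AF9 fusion and marked with green fluorescent protein (GFP), under what the labels call the ubiquitin transporter, and with luciferase, under the β-actin promoter. It was expanded in culture with SCF, IL-3 and IL-6, and then injected into unconditioned male mice aged 8 to 10 weeks, which therefore kept their own blood cells. Every mouse received 5+3 chemotherapy, in which cytarabine (100 mg/kg) was given on each of 5 days and doxorubicin (3 mg/kg) on the first 3, and GFP-positive living cells were sorted when the response was greatest. The labels call the libraries biological replicates. Neither an untreated arm nor a diet arm without chemotherapy was analysed here.

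In the breakdown pathway an aminotransferase moves the amino group of a BCAA to alpha-ketoglutarate, which leaves a branched-chain keto acid and glutamate. BCAT2 does this in mitochondria and BCAT1 in the cytosol, and both can also run in reverse to make BCAA from keto acids. SLC25A44 carries BCAA into mitochondria. There the branched-chain keto acid dehydrogenase complex commits the carbon skeleton to oxidation: BCKDHA and BCKDHB form the decarboxylase, DBT is the lipoate-bearing transacylase core, and DLD is the lipoamide dehydrogenase that this complex shares with those for pyruvate, alpha-ketoglutarate and glycine. The kinase BCKDK switches the complex off by phosphorylating BCKDHA, and the phosphatase PPM1K switches it back on. BCAT1 has been described as raised in several human leukaemias, acute myeloid leukaemia among them.

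None of the 9 genes passed the test for a change with the diet, and for most of them the comparison put a bound on the change. In edgeR's quasi-likelihood test with Benjamini-Hochberg adjustment over all 13364 genes tested, 0 of 9 passed an adjusted p of 0.05, against 0.756% of all tested genes (101 genes). At an unadjusted p under 0.05 the count was 0 of 9 as well, against 13.5% of all tested genes, DESeq2 called 0 of the 8 to which it gave an adjusted p (all but Bcat1), against 3.05% of its genes, and limma-voom called 0 of 9, against 0.479%. The groups overlapped for all 9 genes, while 8.84% of all tested genes did not overlap. For 8 of the 9 genes, all but Bcat1, the 95% interval of the difference lay within a 2-fold change in either direction. The share of all tested genes within that limit was not counted. The median SE over all tested genes was 0.171 on the log2 scale, so intervals of this width were not particular to the 8. The median log2 fold change of the 9 genes was 0.07, against 0.02 over all tested genes. The median size of their change regardless of sign was 0.07, against 0.18. The latter includes genes with few counts, whose fitted changes are noisier, and was not matched on level.

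Promoter windows are shown here for the genes at the extremes of expression, for Bcat2 and for a decarboxylase subunit. The levels that follow can be set beside these sequences. The windows are RefSeq's for GRCm38.p6, from 250 bases before to 50 bases after an annotated start. The table had windows for 7 of the 9 genes, and Slc25a44 and Dbt were not among them. Capitals mark matches to motifs that a script searched on both strands: CACGTG (the E-box bound by MYC and related factors), TGATGNAA (part of the amino acid response element bound by ATF4), GCGCANGCG (a shortened core of the motif of NRF1, a regulator of nuclear genes for mitochondria) and AAGATGGCG (YY1). The motifs were chosen with the sequences in view. The first, Bcat1 at chr6:145076108-145076407 on the minus strand, belongs to the gene with the fewest reads. Bcat2 at chr7:45569903-45570202 on the plus strand, Bckdha at chr7:25658712-25659011 on the minus strand and Dld at chr12:31351422-31351721 on the minus strand follow.
Bcat1: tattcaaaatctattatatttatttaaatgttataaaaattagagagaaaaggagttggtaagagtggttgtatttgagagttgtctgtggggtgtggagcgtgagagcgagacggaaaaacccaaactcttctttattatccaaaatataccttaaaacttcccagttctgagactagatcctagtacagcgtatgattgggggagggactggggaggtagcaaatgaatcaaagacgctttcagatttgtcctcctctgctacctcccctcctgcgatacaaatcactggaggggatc
Bcat2: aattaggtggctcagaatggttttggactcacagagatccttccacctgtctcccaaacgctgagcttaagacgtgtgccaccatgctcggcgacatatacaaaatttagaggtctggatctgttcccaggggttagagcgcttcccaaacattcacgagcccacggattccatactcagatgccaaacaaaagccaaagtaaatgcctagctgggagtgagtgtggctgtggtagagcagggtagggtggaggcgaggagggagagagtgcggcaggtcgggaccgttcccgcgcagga
Bckdha: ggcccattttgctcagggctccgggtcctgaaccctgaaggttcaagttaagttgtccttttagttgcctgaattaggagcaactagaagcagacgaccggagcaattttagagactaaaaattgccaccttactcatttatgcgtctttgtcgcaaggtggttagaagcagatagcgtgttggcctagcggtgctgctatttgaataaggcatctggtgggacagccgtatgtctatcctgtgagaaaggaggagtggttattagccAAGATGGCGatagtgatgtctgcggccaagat
Dld: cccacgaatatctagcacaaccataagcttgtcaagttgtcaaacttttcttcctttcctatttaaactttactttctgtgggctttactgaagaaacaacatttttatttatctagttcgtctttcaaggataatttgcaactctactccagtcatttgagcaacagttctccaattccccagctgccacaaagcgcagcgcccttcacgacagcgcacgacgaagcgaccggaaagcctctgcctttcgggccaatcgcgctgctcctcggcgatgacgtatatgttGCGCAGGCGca

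Of the 10 windows of the 7 genes, 1 held the YY1 letters (Bckdha, beginning 19 bases into the transcript) and 1 the NRF1 letters (Dld, beginning 40 bases in). No window of the 7 genes held the other motifs, and the 2 matches overlapped no other motif searched. Among all 32851 RefSeq windows of this length, 1.40% held the YY1 letters, 6.25% the NRF1 letters, 7.15% the E-box and 3.97% the ATF4 letters. The Bcat1 window shown had 6 CpG dinucleotides and its other annotated window 16. The Bcat2 window shown had 13 and its other annotated window 9. The Bckdha window had 10 and the Dld window 18, against a median of 7 over all windows. Both Bcat2 windows lie inside the gene as annotated here, which starts at 45568967 on chromosome 7. These are descriptions of the letters in the windows.

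The cytosolic aminotransferase gene Bcat1 was close to the detection limit in every library. Its read counts were 1, 3 and 9 in the BCAA-free libraries of replicates 1 to 3, against 22, 13, 15, 8 and 0 in the standard-diet libraries of replicates 1 to 5. The count of 0 in standard-diet replicate 5 allows up to 0.181 CPM, counts scaled to library size (3 counts of the library's total, counting error only). Over all libraries of a diet, 13 of 63303987 counts fell on Bcat1 without BCAA and 58 of 116544911 on the standard diet. All 3 BCAA-free libraries lay below 4 of the 5 standard-diet libraries and above the fifth, so the groups overlapped. The gene passed the filter on low counts only through standard-diet replicates 1 to 3, the libraries with its highest CPM. The fitted log2 fold change was -1.37 with an interval from -3.55 to 0.82 (SE 1.03, edgeR adjusted p = 0.599), so these counts leave its direction unsettled. Bcat1 spans chromosome 6 from 144993835 to 145076157 in GRCm38, and 250 of its exon bases overlap a gene on the other strand in the GENCODE annotation.

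The mitochondrial aminotransferase gene Bcat2 carried nearly all aminotransferase reads and had the smallest p of the 9. It had 68.3, 65.7 and 81.8 CPM in the BCAA-free libraries, scaled by TMM library size, against 65.2, 50.6, 59.5, 63.4 and 67.8 CPM in the standard-diet libraries. Replicate 3 stood highest of the BCAA-free libraries and replicate 2 lowest of the standard-diet ones, and 1 standard-diet library exceeded a BCAA-free one. The means were 71.9 ± 8.68 CPM without BCAA (SD, n = 3) and 61.3 ± 6.72 CPM on the standard diet (SD, n = 5). The fitted fold was 1.17 with an interval from 0.980 to 1.41 (log2 fold change 0.23, SE 0.12, edgeR adjusted p = 0.433), and it was 0.12 on the log2 scale without BCAA-free replicate 3. Reads on Bcat2 outnumbered those on Bcat1 by 1019, 404 and 286 to 1 in the BCAA-free libraries, against 116, 68.5, 99.9 and 132 to 1 in standard-diet replicates 1 to 4. In standard-diet replicate 5, with 1121 reads on Bcat2 and 0 on Bcat1, it was at least 374 to 1 (at 3 counts for Bcat1), above the lowest BCAA-free library, so the groups overlapped. In every other library the ratio rests on the 1 to 22 Bcat1 reads. The gene lies on chromosome 7 from 45568967 to 45589710, and 508 of its exon bases are shared with 0610005C13Rik on the other strand, which had 90 counts over all 8 libraries, at most 0.992 CPM in any library.

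The mitochondrial BCAA carrier gene Slc25a44 had nearly the same mean on both diets, 36.0 ± 3.16 CPM without BCAA (SD, n = 3) and 35.2 ± 4.40 CPM on the standard diet (SD, n = 5). It had 32.4, 38.4 and 37.2 CPM in the BCAA-free libraries, against 37.8, 31.5, 36.7, 40.3 and 29.8 CPM in the standard-diet libraries. The standard-diet libraries spanned the whole range of the BCAA-free ones. Its fitted fold was 1.02 with an interval from 0.832 to 1.26 (edgeR adjusted p = 0.947). Slc25a44 lies on chromosome 3 from 88410494 to 88425141.

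**Figure D1:**
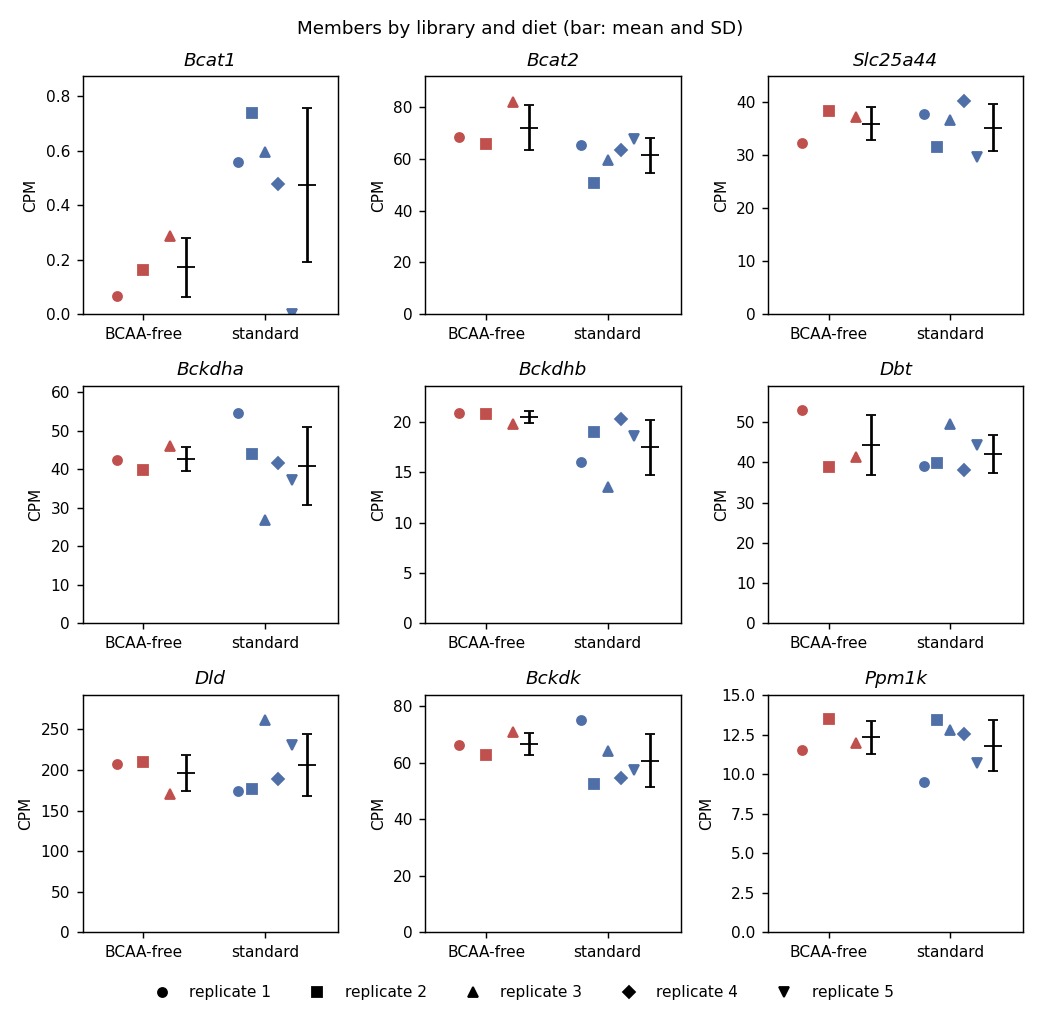
Each panel plots 1 of the 9 genes in CPM scaled by TMM library size, with the BCAA-free libraries left and the standard-diet libraries right, a point for each library shaped by its replicate number, and the mean with its SD as a bar (n = 3 and n = 5). The groups overlap in every panel; the Bckdha points lie between 39.8 and 46.0 CPM without BCAA and run from 26.8 to 54.7 CPM on the standard diet.

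The catalytic decarboxylase subunit gene Bckdha had close means and unequal spread. It had 42.4, 39.8 and 46.0 CPM in the BCAA-free libraries, against 54.7, 43.9, 26.8, 41.7 and 37.3 CPM in the standard-diet libraries. Standard-diet replicate 1 was the highest and replicate 3 the lowest of all 8 libraries, and the BCAA-free libraries fell between them. BCAA-free over standard diet, the fold was 1.05 with an interval from 0.805 to 1.36 (edgeR adjusted p = 0.917). The coefficient of variation was 7.30% among the BCAA-free libraries and 24.9% among the standard-diet libraries, the widest of the 8 genes other than Bcat1. Bckdha lies on chromosome 7 from 25629852 to 25658782.

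Bckdhb, which encodes the other decarboxylase subunit, had 20.9, 20.8 and 19.8 CPM in the BCAA-free libraries, against 16.0, 19.0, 13.5, 20.3 and 18.6 CPM in the standard-diet libraries. Standard-diet replicate 3 was again the lowest library, and standard-diet replicate 4 alone reached into the narrow BCAA-free range. Bckdhb averaged 20.5 ± 0.621 CPM without BCAA (SD, n = 3) and 17.5 ± 2.71 CPM on the standard diet (SD, n = 5). Its log2 fold change was 0.23 with an interval from -0.12 to 0.59 (SE 0.17, edgeR adjusted p = 0.581). The interval is the widest upward of the 8 genes other than Bcat1. Bckdhb spans chromosome 9 from 83925111 to 84124240.

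The transacylase core gene Dbt had 52.9, 39.0 and 41.3 CPM in the BCAA-free libraries, against 39.1, 39.8, 49.5, 38.2 and 44.3 CPM in the standard-diet libraries. Here standard-diet replicate 3, the lowest library for both decarboxylase genes, was the highest of its group. The fitted fold was 1.05 with an interval from 0.855 to 1.29 (edgeR adjusted p = 0.871). Dbt lies on chromosome 3 from 116513070 to 116549981.

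Dld, the shared lipoamide dehydrogenase gene, was the only one of the 9 besides Bcat1 with a negative fitted change. It had 208, 211 and 171 CPM in the BCAA-free libraries, against 174, 177, 262, 189 and 230 CPM in the standard-diet libraries. Standard-diet replicate 3 was the highest library, as it was for Dbt within its group, and BCAA-free replicate 3 the lowest. The fitted fold was 0.951 with an interval from 0.778 to 1.16 (edgeR adjusted p = 0.865), and its direction turned without BCAA-free replicate 3 or without standard-diet replicate 3, where the log2 fold change was 0.01 and 0.03. Dld lies on chromosome 12 from 31331562 to 31351471.

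Of the regulators, the kinase gene Bckdk had 66.4, 62.8 and 70.8 CPM in the BCAA-free libraries, against 75.2, 52.4, 64.2, 54.4 and 57.4 CPM in the standard-diet libraries. Standard-diet replicate 1 exceeded every BCAA-free library, while 3 standard-diet libraries were below all of them. For the kinase gene the log2 fold change was 0.13 with an interval from -0.14 to 0.41 (SE 0.13, edgeR adjusted p = 0.700). The phosphatase gene Ppm1k had 11.5, 13.5 and 12.0 CPM in the BCAA-free libraries, against 9.55, 13.4, 12.8, 12.5 and 10.7 CPM in the standard-diet libraries. The standard-diet libraries spanned nearly the same range with a lower bottom, and the fitted fold was 1.05 with an interval from 0.790 to 1.39 (edgeR adjusted p = 0.921). Bckdk lies on chromosome 7 from 127904073 to 127909664, and Ppm1k on chromosome 6 from 57506502 to 57535552.

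**Figure D2:**
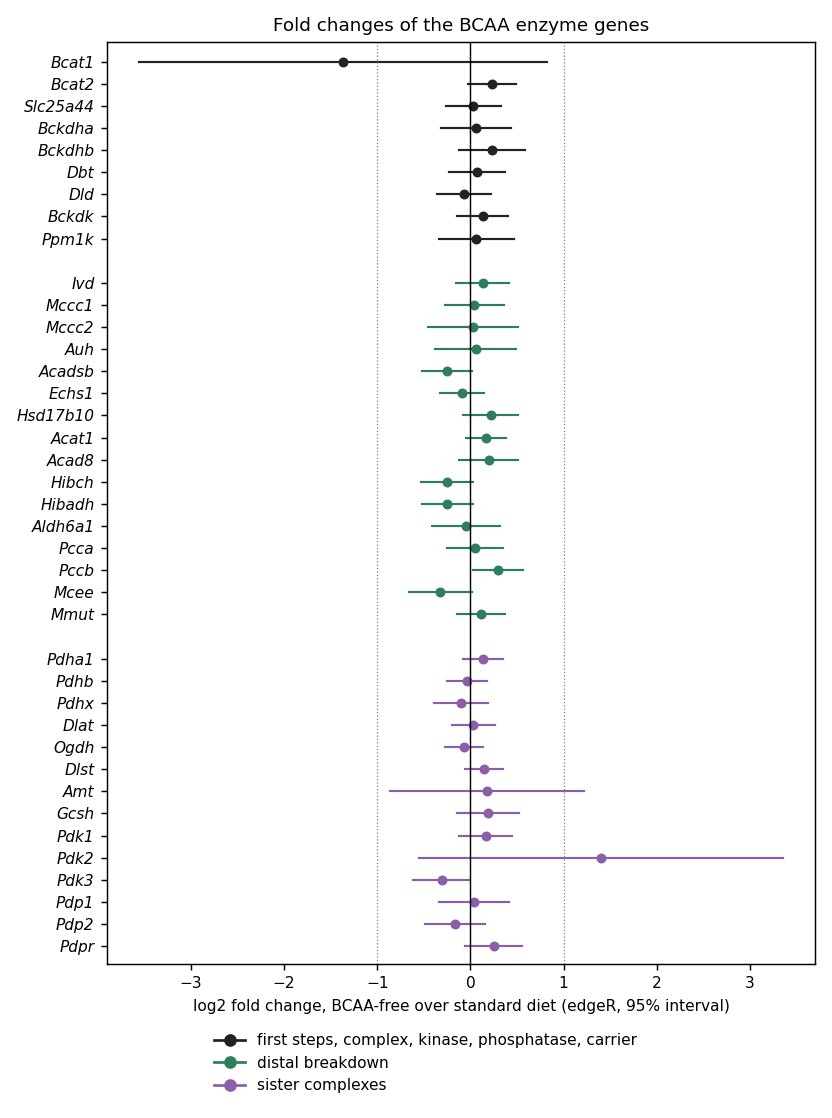
Points are log2 fold changes of the BCAA-free over the standard diet and lines their 95% intervals from edgeR, for the 9 genes at the top (black), the tested genes of distal BCAA breakdown (green) and those of the sister dehydrogenase complexes (purple); dotted lines mark a log2 change of 1 in either direction. The intervals of 8 of the 9 genes lie between the dotted lines and include 0, and that of Bcat1 runs from -3.55 to 0.82.

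Ratios within a library, which no scaling between libraries can move, showed the same overlap. They are given as descriptions, without a test. Reads on the kinase gene outnumbered those on the phosphatase gene 5.76, 4.66 and 5.90 to 1 in the BCAA-free libraries, against 7.88, 3.89, 5.01, 4.34 and 5.37 to 1 in the standard-diet libraries. The BCAA-free values sat inside the standard-diet range, whose top was replicate 1. The Bckdha to Bckdhb ratio was 2.03, 1.91 and 2.33 without BCAA, against 3.42, 2.31, 1.98, 2.06 and 2.01 on the standard diet, where replicate 1 stood apart from the other 4. The Dbt to Bckdha ratio was 1.25, 0.978 and 0.897 without BCAA, against 0.713, 0.907, 1.85, 0.917 and 1.19 on the standard diet, where replicate 3 was highest and replicate 1 lowest. The Bcat2 to Bckdha ratio was 1.61, 1.65 and 1.78 without BCAA, against 1.19, 1.15, 2.22, 1.52 and 1.82 on the standard diet. For all 4 ratios the standard-diet libraries spread more widely than the BCAA-free ones. A range over 5 libraries tends to be wider than a range over 3, and the difference in spread was not tested. For Bckdha to Bckdhb the wider spread rested on standard-diet replicate 1.

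**Figure D3:**
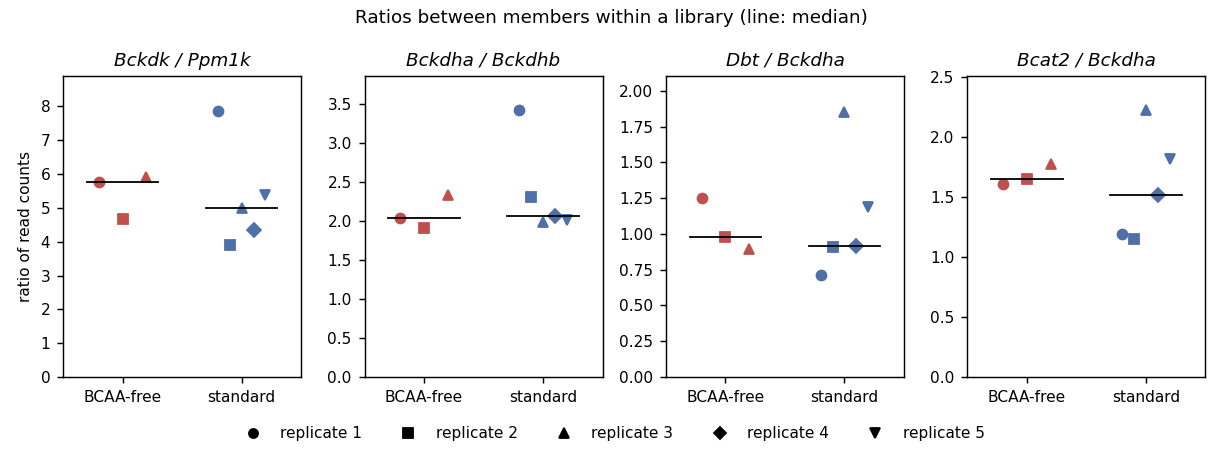
Each panel plots the ratio of read counts of a pair of genes within each library, BCAA-free left and standard diet right, shaped by replicate number, with a line at the median of each diet. The medians of Bckdha to Bckdhb are 2.03 without BCAA and 2.06 on the standard diet, and standard-diet replicate 1 lies at 3.42.

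Standard-diet replicates 1 and 3 set most of this spread, and their other measurements are given beside it. Summed over 7 neutrophil genes such as S100a8 and Ltf (unscaled totals), BCAA-free replicate 2 had 5830 CPM, with Bckdha at 39.8 and Bckdhb at 20.8 CPM. On the standard diet the same sum was 5691 CPM in replicate 3 and 710 to 2457 CPM in the other libraries. None of the 7 genes was at 0 in any library. Standard-diet replicate 1 was the deepest library, with 38966911 counts. The part of these measures in the spread was not tested. Across the 8 libraries, 4 pairs of genes were compared on log2 CPM by exact permutation of the pairings, two-sided. Pearson's r was 0.47 for Bckdha with Bckdhb (p = 0.237), -0.53 for Bckdha with Dbt (p = 0.192), -0.56 for Bckdk with Ppm1k (p = 0.151) and 0.23 for Bcat2 with Bckdha (p = 0.533). Spearman's rho was 0.12 (p = 0.793), -0.24 (p = 0.582), -0.55 (p = 0.171) and 0.19 (p = 0.665) for the same pairs by exact permutation. No pair passed adjustment over the 4 (lowest adjusted p 0.316 for r and 0.684 for rho). Without the 2 libraries farthest from the median of the gene named first, r was 0.19, -0.07, 0.09 and 0.60. The larger values thus rested on standard-diet replicates 1 and 3 for Bckdha and on standard-diet replicates 1 and 2 for Bckdk. Leaving out the most extreme libraries narrows the range of a gene, which by itself tends to shrink r. On values centred within each diet, r was 0.46, -0.59, -0.73 and 0.16 for the same pairs, without a test.

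To set levels of different genes side by side, counts were divided by exon length. That length joined the exon bases of all annotated transcripts of a gene (3493 for Bckdk, 1899 for Bckdha and 8362 for Bcat1). The transcripts present in these cells can be shorter, so the order between genes holds for this length only. On that scale (counts per kilobase of GENCODE exon, scaled to the same total in every library, TPM), Dld stood at the top with 244 ± 30.7 TPM without BCAA (SD, n = 3) and 253 ± 40.2 TPM on the standard diet (SD, n = 5), at the 93.5th percentile of tested genes. Bcat2 followed with 90.9 ± 9.57 TPM without BCAA and 76.7 ± 6.63 TPM on the standard diet. Bckdha had 70.9 ± 4.20 TPM without BCAA and 67.5 ± 17.8 TPM on the standard diet, and Bckdk 60.1 ± 2.79 TPM without BCAA and 54.2 ± 7.59 TPM on the standard diet. Below them came Dbt with 42.4 ± 7.40 TPM without BCAA and 39.8 ± 3.85 TPM on the standard diet, and Bckdhb with 40.0 ± 1.79 TPM without BCAA and 33.9 ± 5.97 TPM on the standard diet. Slc25a44 had 31.7 ± 2.70 TPM without BCAA and 30.7 ± 3.35 TPM on the standard diet. Ppm1k had 6.99 ± 0.624 TPM without BCAA and 6.65 ± 1.06 TPM on the standard diet, at the 22.9th percentile, and Bcat1 had 0.0644 ± 0.0403 TPM without BCAA and 0.179 ± 0.109 TPM on the standard diet. The place of Dld at the top, of Ppm1k in the eighth place and of Bcat1 at the bottom held in all 8 libraries. Bckdk was above Dbt in 8 of 8 libraries and Bckdha above Bckdk in 7, whereas Bcat2 with Bckdha, Dbt with Bckdhb, and Bckdhb with Slc25a44 kept their order in 6 of 8 each.

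The sister complexes that share DLD gave a scale for these levels. Pdha1 and Pdhb, the decarboxylase subunits of pyruvate dehydrogenase, had 285 ± 25.8 and 183 ± 8.24 TPM over all 8 libraries (SD). The transacylase core gene of that complex, Dlat, had 67.3 ± 3.71 TPM, and Dlst, the core gene of the alpha-ketoglutarate dehydrogenase complex, 244 ± 19.1 TPM. Dbt, their counterpart in the branched-chain complex, was lower than both at 40.8 ± 5.08 TPM over the same libraries. Ogdh, the alpha-ketoglutarate decarboxylase, had 213 ± 8.69 TPM, against 68.7 ± 13.7 TPM for Bckdha. Not every sister gene was higher than Dbt. Pdhx, of the pyruvate complex, had 25.5 ± 2.52 TPM, below Dbt in every library. Of the glycine complex, Amt had 2.46 ± 0.671 TPM and Gcsh 101 ± 16.4 TPM.

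**Figure D4:**
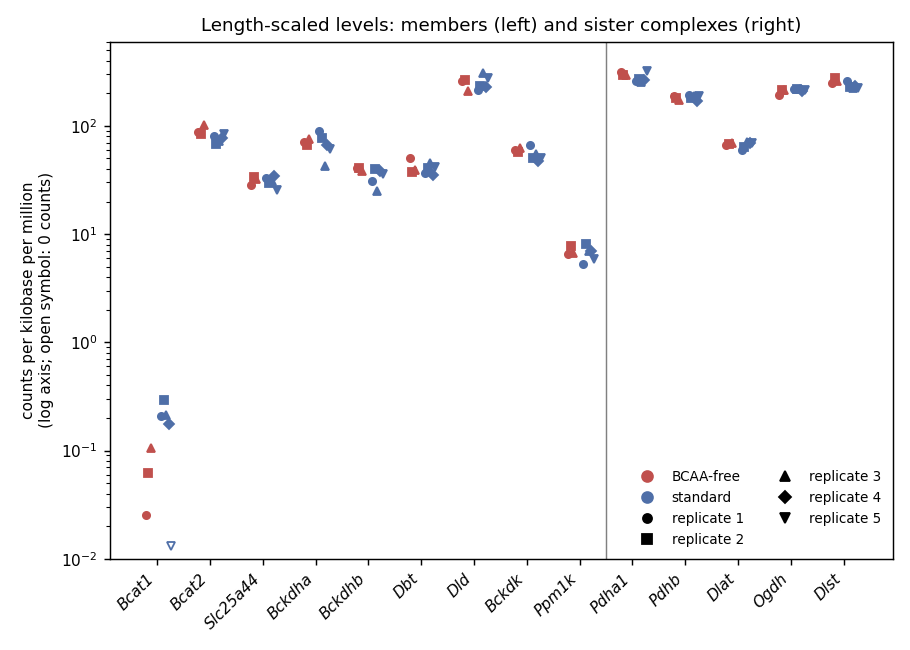
Points are length-scaled levels (counts per kilobase of exon, TPM, log axis) of each gene in each library, BCAA-free in red left of standard diet in blue, shaped by replicate number; an open symbol marks the library with 0 Bcat1 counts. Dld lies with the sister-complex genes Pdha1, Pdhb, Ogdh and Dlst between 168 and 319 TPM in every library, and Bcat1 lies under 0.3 TPM.

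Genes around the 9 were not called either. Distal BCAA breakdown turns the branched acyl-CoAs into acetyl-CoA and propionyl-CoA, and then converts the propionyl-CoA further. Of its 16 genes listed, 16 were tested and 0 passed in any of edgeR, DESeq2 and limma-voom, while 1 had an unadjusted p below 0.05 in edgeR (median log2 fold change 0.05). That gene was Pccb, a subunit of propionyl-CoA carboxylase, at 56.3 ± 3.25 CPM without BCAA and 45.9 ± 5.16 CPM on the standard diet (log2 fold change 0.30, SE 0.12, edgeR adjusted p = 0.318), whose groups did not overlap (8.84% of tested genes share this). Mcee, the methylmalonyl-CoA epimerase gene that acts after it, had the next smallest p, at 19.9 ± 2.53 CPM without BCAA and 24.9 ± 2.95 CPM on the standard diet (log2 fold change -0.32, SE 0.16, edgeR adjusted p = 0.397), and its groups overlapped. Of 17 genes of the sister complexes and their kinases and phosphatases, 14 were tested and 0 passed in any of the 3 tools, with 1 at an unadjusted p under 0.05 in edgeR (median 0.09). That was the pyruvate dehydrogenase kinase Pdk3 (log2 fold change -0.31, SE 0.14, adjusted p = 0.359). The phosphatase regulatory gene Pdpr had the next smallest p (log2 fold change 0.25, adjusted p = 0.486). Gldc, Pdk4 and Dhtkd1 failed the filter, with 2, 13 and 29 counts over all 8 libraries.

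The genes that supply lipoate, the cofactor bound to DBT, and genes described elsewhere as controlling BCAA enzymes showed the same. Of 7 lipoate genes 0 passed in any of the 3 tools and 0 had an unadjusted p under 0.05 in edgeR, the smallest p belonging to the mitochondrial fatty acid reductase gene Mecr (log2 fold change 0.29, adjusted p = 0.520) and the next to Mcat (0.19, adjusted p = 0.742). Of 7 regulators, 3 were tested and 0 passed in any tool, with 0 at an unadjusted p under 0.05 in edgeR. Over all tested genes 13.5% had such an unadjusted p. Ezh2, the histone methyltransferase reported to hold Bcat1 down in myeloid leukaemia, was at 258 CPM without BCAA and 291 CPM on the standard diet (log2 fold change -0.17, SE 0.10, adjusted p = 0.463). Its groups did not overlap, which 8.84% of all tested genes share. The transcription factor gene Myc (adjusted p = 0.698) averaged 259 CPM without BCAA and 239 CPM on the standard diet. Msi2, an RNA-binding protein reported to raise BCAT1 in human chronic myeloid leukaemia, averaged 67.2 CPM without BCAA and 68.0 CPM on standard amino acids (adjusted p = 0.970). Klf15, Mlxipl, Ppara and Ppargc1a, regulators of BCAA or fatty acid breakdown in liver, muscle and heart, failed the filter with 4 to 40 counts each over all libraries.

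By likeness over the 8 libraries (Pearson's r of log2 CPM among all tested genes with a symbol, the 2 highest for each gene, without a test), Bckdk varied most like Arpc1a (r = 0.99) and Pafah1b3 (0.96), and Dld like Hpgd (0.99) and Rap2c (0.97). Bcat2 varied most like Rpl22 and the ribosomal protein pseudogene Gm9794 (0.97 each). Trim14 and Adck5 came nearest to Bckdha (0.95 and 0.94), Adcy6 and Nit1 to Bckdhb (0.93 and 0.92), and P2ry12 and Igkv4-59 to Dbt (0.97 and 0.96). For Slc25a44 these were Arhgef10l and Snf8 (0.94 each), for Ppm1k Ctdspl and Exd1 (0.95 and 0.92), and for Bcat1 Dennd2d and Pi4ka (0.96 and 0.93). None of the 9 genes was among the 2 nearest of another. These are the highest values among all those genes over 8 libraries, and the values of 1 library share its depth and makeup. Some of the genes named, Bcat1 itself among them, were near the floor, where counting error weighs on r. Mean CPM without BCAA and on the standard diet was 0.881 and 0.346 for P2ry12 and 1.14 and 0.622 for Igkv4-59. It was 0.995 and 0.639 for Adcy6 and 1.48 and 1.09 for Pafah1b3. For Bcat1 it was 0.172 and 0.475, from 0 to 22 reads in a library.

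Library totals ran from 14851240 to 30306697 counts without BCAA and from 16588662 to 38966911 on the standard diet (two-sided exact permutation p = 0.857, smallest possible 0.0357). Summed levels of 8 myeloid and leukaemia genes were 7111 to 8293 CPM without BCAA and 8752 to 11175 CPM on the standard diet, without overlap (exact permutation p = 0.0357). Most of that sum was Mpo, the myeloperoxidase gene, at 5915 to 7226 CPM without BCAA and 7327 to 9869 CPM on the standard diet. The groups overlapped for the other 7, among them Hoxa9 and Meis1 at 142 to 198 and 115 to 145 CPM over all libraries and Mecom at no more than 1.18 CPM, and the mean was lower without BCAA for all 8. Summed levels of 5 B cell genes were 26.4 to 101 CPM without BCAA and 7.82 to 15.4 CPM on the standard diet, and of 7 immediate early genes 82.1 to 91.3 CPM without BCAA and 56.8 to 70.0 CPM on the standard diet. Sums over 6 T cell genes were 4.19 to 31.8 CPM without BCAA and 1.85 to 6.33 CPM on the standard diet, and over 6 macrophage genes 219 to 280 CPM without BCAA and 277 to 390 CPM on the standard diet. The macrophage genes went both ways: Vcam1 and Adgre1, which make up most of the sum, had lower means without BCAA, while the means of C1qa, C1qb, C1qc and Cd5l were higher without BCAA, as with C1qa at 4.16 to 6.46 CPM without BCAA and 2.02 to 3.65 CPM on the standard diet. Over 5 erythroid genes they were 4.68 to 42.5 CPM without BCAA and 3.20 to 11.1 CPM on the standard diet, and over 5 endothelial and stromal genes 40.2 to 61.7 CPM without BCAA and 24.8 to 43.3 CPM on the standard diet. The endothelial and stromal genes also went both ways, with means higher without BCAA for 3 and lower for 2. Cxcl12 averaged 24.1 CPM without BCAA and 5.15 CPM on the standard diet, and Pecam1 22.6 and 27.7 CPM. No B cell gene was at 0 in any library, while Cd4, Klf1, Cdh5 and Col1a1 were at 0 in at least 1. Over 7 genes of mitochondrial content, such as Cs and Vdac1, the sums were 1680 to 1943 CPM without BCAA and 1422 to 1769 CPM on the standard diet. The B cell, immediate early and myeloid sums did not overlap between the diets, which gives the smallest p this design allows (exact permutation p = 0.0357, adjusted p = 0.131 over 11 library measures). At least 8 of the 11 measures would have had to reach that p for any to pass adjustment. The part of these measures in the values of the 9 genes was not tested. In bulk RNA a lower share of cells and less RNA per cell cannot be told apart.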

How the data were processed

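Polyadenylated RNA was made into libraries with the Kapa mRNA HyperPrep kit and sequenced as paired reads of 38 bp, per the labels' protocols. The authors deposited 1 table of raw read counts per Entrez gene, without normalization. The submitters' processing notes name the mm10 build, featureCounts and Cell Ranger. How reads were aligned, whether strand was used and what became of multiply mapping reads were not given in the sources used here. Sample titles gave the groups. Gene names and positions are those of RefSeq's GRCm38.p6 gene table (25275 of 27179 identifiers matched), and exon lengths are from GENCODE M21 (21572 identifiers), which need not be the annotation used for counting.

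From the counts, edgeR 4.0.16 in R 4.3.3 gave the quasi-likelihood F test with robust dispersion, TMM factors, the default filter (minimum count 10, minimum total 15) and a model with diet alone, adjusted by Benjamini-Hochberg over 13364 genes at 0.05. A standard error is the size of the log2 fold change over the root of F, and intervals use the fit's total degrees of freedom. Alternatives were DESeq2 1.42.0, limma-voom (limma 3.58.1), other scalings, no filter, a non-robust fit, the replicate number as a block, and leaving out each library. The procedure was tested on simulated counts. Log2 CPM used a prior count of 2. Within a diet, libraries were farther apart than counting allows (chi-square at least 20.3 per degree of freedom), so none was a second sequencing of another. Separate libraries made from the same sample can also differ by more than counting error, so the check cannot exclude them. The labels do not say whether replicates came from separate mice or from pooled ones, and p-values measure the spread between these libraries. The 9 genes and the lists were chosen with earlier results of these data known. Named genes were the 9, the 2 smallest p of each list, and the 2 genes most like each of the 9. Of the listed genes, 2 are not reported here and were left out of their lists.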

Additional observations from a re-analysis of the deposited data

Results flagged for a closer look

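Of 13 quantities examined in the 5 standard-diet libraries (CPM of each of the 9 genes and 4 ratios), 1 had a library far from the rest. The ratio of Bckdha to Bckdhb reads was 1.91 to 2.33 in the 3 BCAA-free libraries. It was 3.42 in standard-diet replicate 1, and 1.98 to 2.31 in the other 4 standard-diet libraries. By chance about 1 in 20 such groups is flagged in this way. Bckdha was highest of all libraries there (54.7 CPM) and Bckdhb was 16.0 CPM, the second lowest of its group. Leaving that library out gave log2 fold changes of 0.20 for Bckdha and 0.20 for Bckdhb, with adjusted p of 0.628 and 0.657 in edgeR.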

How the results depend on the processing

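All 9 genes stayed uncalled under every alternative that gave a value, as did the 4 other lists. The lowest adjusted p under any alternative was 0.346 for Bcat2 (highest 0.797), 0.409 for Bckdk (highest 0.959) and 0.493 for Bckdhb (highest 0.814). Bcat1 failed the filter without standard-diet replicate 1, 2 or 3, had no adjusted p in DESeq2, and lay between -1.98 and -0.94 in the other fits. The fits without 1 of its highest libraries are thus missing from that range, which cannot speak for the steadiness of its direction. Directions turned only when a library was left out: Slc25a44 then ranged from -0.025 to 0.10 on the log2 scale, Bckdha from -0.056 to 0.20, Dbt from -0.072 to 0.15, Dld from -0.13 to 0.028 and Ppm1k from -0.013 to 0.12. The count over all tested genes moved more: 101 became 376 in DESeq2, 64 in limma-voom, 237 without the filter and 32 to 134 when a library was left out (32 without BCAA-free replicate 2, 52 without BCAA-free replicate 1 or standard-diet replicate 2, 53 without standard-diet replicate 5 and 55 without standard-diet replicate 4). Same-numbered libraries did not deviate together (correlations -0.08, -0.05 and -0.30), so the numbers were not taken as pairs. With the replicate number as a block, 0 genes were called over all 8 libraries and 0 over replicates 1 to 3 in edgeR, with 899 and 904 at an unadjusted p under 0.05. Among the 9, low depth bears most on Bcat1.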
